A study of Homo sapiens with 12 samples.

Results

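The genes of glycolysis and of the cell's response to low oxygen were followed in Calu-3 cells, a long-established line of human airway epithelium, after transfection with a control RNA, an siRNA or a microRNA mimic. The set was a list of 35 gene symbols, taken as given here but chosen with earlier results of these data known. Of these, 32 were measured among 18417 genes in all. PGAM1, SLC16A3 and CA9 had no probe set that carried their symbol alone and were not analysed here.

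12 arrays were measured. 6 carried cells given NC1, a scrambled control RNA, 3 carried cells given siRNA against SIN3A, the scaffold of a histone deacetylase corepressor complex, and 3 carried cells given a mimic of the microRNA miR-138. All groups received a lipid transfection reagent, so no untransfected cells were compared. The labels call the arrays biological replicates without saying whether they came from separate cultures, so the p-values measure only the spread between these arrays. The notes on RNA extraction mention primary cultures although the labels give Calu-3, and the labels were followed. Doses, the time to harvest and the oxygen, glucose and density of the cultures are not stated in the labels.

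Glycolysis splits glucose into pyruvate, which is either burned in mitochondria or reduced to lactate. When oxygen is low, the prolyl hydroxylases EGLN1 and EGLN3 no longer mark the HIF alpha subunits for destruction, and HIF then binds a short DNA element near many glycolytic genes, glucose transporters, angiogenic factors and mitophagy receptors. Several of the same genes also answer to MYC and to glucose-sensing factors, whatever the oxygen level.

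Levels are the deposited log2 values, where a difference of 1 is a doubling and where levels of different genes are not comparable, since each probe set has its own response. They ran from 1.43 to 13.2, with array medians between 5.09 and 5.16. Of the 32 genes, 23 had a mean level of at least 6 and 9 lay lower. No filter on low values was applied, so all 32 were tested. A gene is called higher or lower where limma's adjusted p, over all 18417 genes, is under 0.05. SIN3A itself averaged 6.03 ± 0.14 (SD, n = 3) with the siRNA, 6.08 ± 0.16 (SD, n = 3) with the mimic, 6.62 ± 0.23 (SD, n = 3) on NC1 1 to 3 and 7.20 ± 0.12 (SD, n = 3) on NC1 4 to 6, and was called lower in both treatments against either part of the control. Against NC1 1 to 3 the siRNA's call was lost without siRNA 2 (adjusted p = 0.0593) and in a fit of only the arrays compared, and the mimic's without mimic 1 (adjusted p = 0.0658). All 10 epithelial markers lay above the median gene in every group, against 1 or 2 of 7 fibroblast, 2 of 6 leukocyte and 1 of 6 endothelial markers. The mean endothelial marker level was 4.31 to 4.52 over all arrays. In RNA from whole cultures, fewer cells expressing a gene and less RNA per cell cannot be told apart.

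The microRNA given as a mimic and the promoters of 4 genes whose levels moved between arrays are shown for orientation. The labels do not say which arm of miR-138 the mimic copies. The arm usually meant, miR-138-5p, is encoded at chr3:44114234-44114256 (MIR138-1) and chr16:56858527-56858549 (MIR138-2), both on the plus strand of GRCh38.p14. Its seed, bases 2 to 8, is in capitals in the RefSeq sequence.
hsa-miR-138-5p: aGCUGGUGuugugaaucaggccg

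The core of the hypoxia response element was searched as ACGTG, on both strands, in RefSeq promoter windows that run from 250 bases before to 50 bases after a start site. It was present in a window of 19 of the 29 genes of the set that have one (65.5%), against 4116 of 14239 genes measured here (28.9%). The set was listed for glycolysis and the response to low oxygen, so this excess may follow from that choice. It is not a result of these arrays. Among the genes of the set that were higher on NC1 4 to 6 than on NC1 1 to 3, 9 of 13 with a window held ACGTG (69.2%), and among the rest 10 of 16 (62.5%). The longer CACGTG reads the same on both strands, so it counts on each, and it is also an E-box, the element of MYC and of the glucose-sensing factors. The other core, GCGTG, was in 18 of 29 genes of the set (62.1%) and in 51.2% of those measured here. It was in 10 of the 13 genes that were higher on NC1 4 to 6 (76.9%) and in 8 of the other 16. A gene counts here if any of its windows holds the core, and the 29 genes had 52 windows where the 14239 genes had 20096. Counted by window, ACGTG was in 44.2% of the set's windows and 23.1% of those of all measured genes. For GCGTG these shares were 42.3% and 43.3%, so by window the set had no excess of it. VEGFA, BNIP3L and NDRG1 had no window. A match describes letters and not binding. LDHA, HK2, PDK1 and BNIP3 are examples picked because each holds the core at 2 or more places or on both strands. PFKFB3, GAPDH and ANKRD37, among others, do so too and are not shown. For HK2 and PDK1 the window belongs to the later of 2 annotated starts, and for LDHA to the earlier of 2. The windows at the other starts of LDHA and PDK1 hold no ACGTG. The 250 bases before the start are printed 5′ to 3′ on the gene's strand, with ACGTG or its reverse complement in capitals (overlapping matches run together as CACGTG), from chr11:18394313-18394562 (LDHA, plus strand), chr2:74834920-74835169 (HK2, plus strand), chr2:172555840-172556089 (PDK1, plus strand) and chr10:131981924-131982173 (BNIP3, minus strand) of GRCh38.p14.
LDHA: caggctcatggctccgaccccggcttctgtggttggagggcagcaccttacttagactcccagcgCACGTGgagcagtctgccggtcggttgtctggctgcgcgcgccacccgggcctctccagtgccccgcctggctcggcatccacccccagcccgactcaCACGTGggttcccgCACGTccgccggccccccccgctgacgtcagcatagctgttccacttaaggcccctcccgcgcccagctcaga
HK2: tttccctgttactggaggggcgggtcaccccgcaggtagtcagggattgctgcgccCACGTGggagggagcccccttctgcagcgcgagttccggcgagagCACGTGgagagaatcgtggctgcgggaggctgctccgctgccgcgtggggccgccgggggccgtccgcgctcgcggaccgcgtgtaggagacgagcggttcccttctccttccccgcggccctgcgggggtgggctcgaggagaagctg
PDK1: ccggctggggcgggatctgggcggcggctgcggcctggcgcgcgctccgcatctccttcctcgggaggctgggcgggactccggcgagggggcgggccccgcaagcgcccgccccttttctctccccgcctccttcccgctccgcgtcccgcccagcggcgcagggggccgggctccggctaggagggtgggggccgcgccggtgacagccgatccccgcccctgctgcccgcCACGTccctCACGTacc
BNIP3: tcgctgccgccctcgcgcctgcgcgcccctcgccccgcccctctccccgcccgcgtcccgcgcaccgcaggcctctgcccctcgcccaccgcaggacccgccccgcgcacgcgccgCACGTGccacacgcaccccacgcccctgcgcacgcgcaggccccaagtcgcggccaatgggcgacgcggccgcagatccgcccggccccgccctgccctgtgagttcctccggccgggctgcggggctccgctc

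Many glycolytic and hypoxia genes differed within the control itself. In NC1 4 to 6, 15 of the 32 genes were called higher than in NC1 1 to 3 and 0 lower, while 6.86% of all genes were called higher and 3.18% lower. All 3 arrays of NC1 4 to 6 lay above all 3 of NC1 1 to 3 for 18 of the 32 genes and below for 1, VEGFA, where 12.0% of all genes lay above and 10.4% below. The median difference of the set was 0.27, against -0.02 over all genes. The mean level of the 32 genes was 6.70, 6.75 and 6.63 on NC1 1 to 3 and 7.01, 7.06 and 7.00 on NC1 4 to 6. It was 6.84, 6.85 and 6.84 with SIN3A siRNA and 7.10, 7.01 and 7.11 with the mimic. The siRNA arrays thus lay between the parts of the control, and the mimic arrays lay at or above its upper part. By group means, 20 of the 32 genes lay between both parts of the control with the siRNA, 6 above both and 6 below both, and with the mimic 12 lay between, 15 above and 5 below. The labels do not say what set the NC1 parts apart or which part was run with which treatment. Those sources cannot be told apart here, so each treatment is given against all 6 control arrays and against each part.

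**Figure D1:**
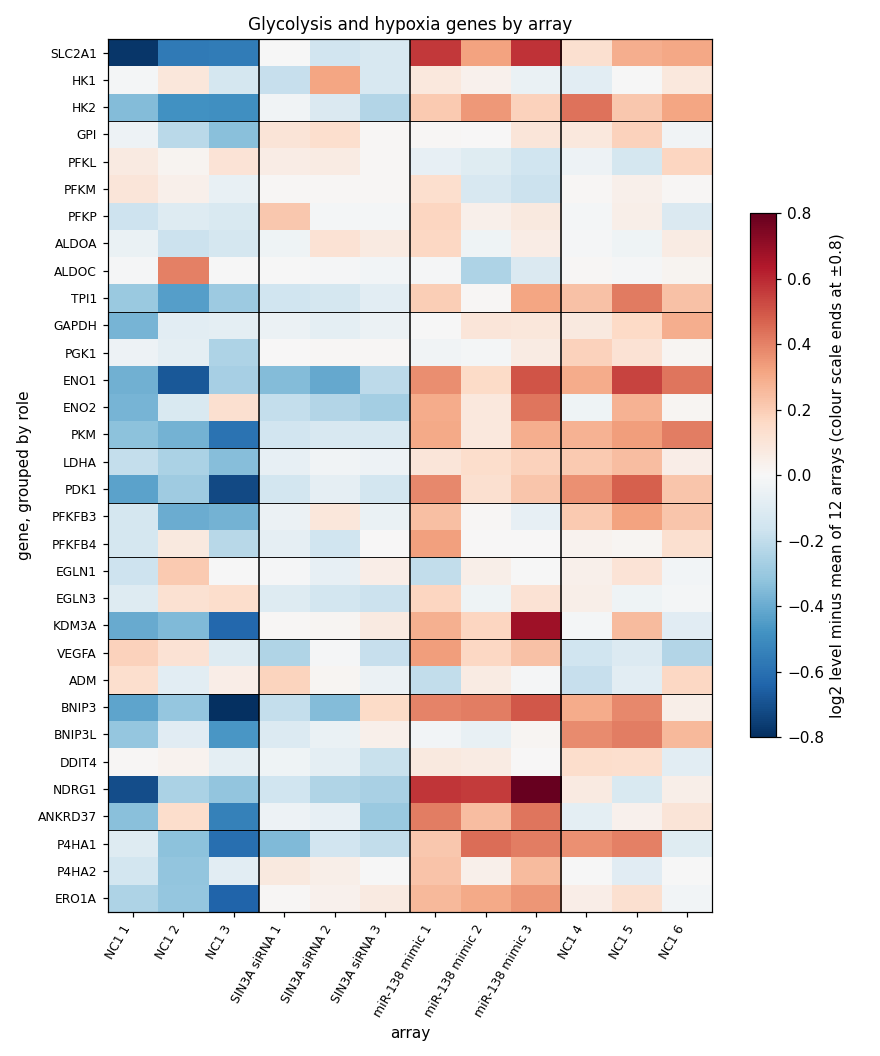
Each row is 1 of the 32 genes, grouped by role, and each column 1 of the 12 arrays. Colour gives the log2 level minus that gene's mean over the 12 arrays, with the scale ended at ±0.8. NC1 1 to 3 is blue for most glycolytic genes, NC1 4 to 6 and the mimic arrays are red, and the siRNA arrays are pale.

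Against all 6 NC1 arrays, SIN3A siRNA left no gene of the set called by limma. 0 of 32 passed, while 2.35% of all genes were called higher and 1.66% lower. At an unadjusted p under 0.05 there were 0 of the 32, where 16.4% of all genes passed in either direction. The differences ran from -0.31 to 0.24 with a median of -0.02. The spread between the parts of the control enters this comparison: for SLC2A1 the SE was 0.22 here and 0.10 with the parts apart. Against NC1 1 to 3, SIN3A siRNA had 3 genes called higher (SLC2A1, KDM3A and ERO1A) and 0 lower, with 3.66% of all genes called higher and 2.04% lower. Against NC1 4 to 6 it had 0 higher and 8 lower (SLC2A1, HK2, TPI1, ENO1, PKM, PDK1, BNIP3L and P4HA1), with 5.16% of all genes called higher and 6.28% lower. These comparisons share the siRNA arrays and are not independent of each other. The 3 genes became 7 without NC1 1 and 1 without NC1 3, siRNA 2 or siRNA 3, and the 8 genes became 3 without NC1 5 and 5 without siRNA 2.

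With the miR-138 mimic, 1 of 32 genes, NDRG1, was called higher against all 6 NC1 arrays and 0 lower, where 0.641% of all genes were called higher and 0.402% lower. The set's median difference was 0.18, against -0.01 over all genes. At an unadjusted p under 0.05 there were 11 of the 32, all of them higher, where 11.3% of all genes passed in either direction. Against NC1 1 to 3, 15 were called higher and 0 lower, with 6.01% of all genes called higher and 2.54% lower. Against NC1 4 to 6, NDRG1 and VEGFA were called higher and 0 genes lower, with 1.59% of all genes called higher and 1.89% lower, and the median was -0.01. Between the treatments themselves, NDRG1 was called higher in the mimic arrays and 0 genes lower, with 0.679% of all genes called higher and 0.890% lower. The mimic arrays all lay above the siRNA arrays for 18 of the 32 genes and below for 1, where 13.3% of all genes lay above and 13.1% below.

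**Figure D2:**
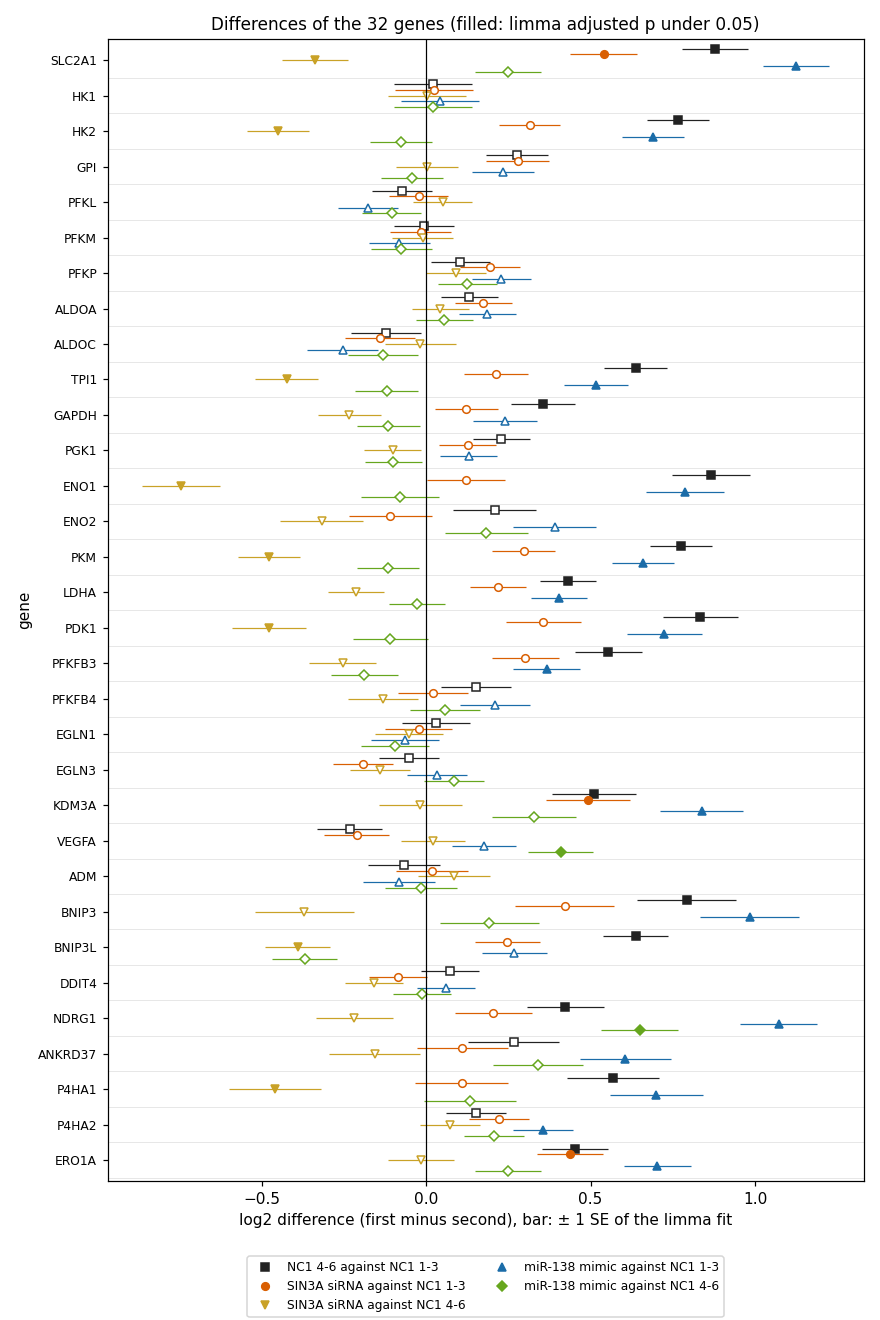
Log2 differences of the 32 genes on the x axis, each with ± 1 SE of the limma fit, for the comparison of the NC1 parts and of both treatments with each part. Filled symbols have an adjusted p under 0.05. For HK2, ENO1 and PKM the mimic and NC1 4 to 6 lie side by side, both against the same 3 control arrays, and NDRG1 and VEGFA are filled for the mimic against NC1 4 to 6.

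The glucose transporter gene had the largest difference of the set. SLC2A1 (probe set 7915472) encodes the glucose transporter GLUT1 and read 5.97, 6.18 and 6.19 on NC1 1 to 3, 6.88, 7.04 and 7.06 on NC1 4 to 6, 6.75, 6.60 and 6.62 with the siRNA, and 7.32, 7.07 and 7.33 with the mimic. The 4 sets of arrays did not overlap and stood in the order NC1 1 to 3, siRNA, NC1 4 to 6 and mimic. NC1 4 to 6 exceeded NC1 1 to 3 by 0.88 ± 0.10 (SE; 1.84-fold, adjusted p = 3.3e-05). The siRNA arrays were higher than NC1 1 to 3 by 0.54 ± 0.10 (adjusted p = 0.00497) and lower than NC1 4 to 6, with a difference of -0.34 ± 0.10 (adjusted p = 0.0384). That last call was lost with a second quantile normalization and without siRNA 2, siRNA 3, NC1 5 or NC1 6, at an adjusted p of up to 0.135. The mimic exceeded NC1 1 to 3 by 1.12 ± 0.10 (2.18-fold, adjusted p = 4.32e-06), and its difference from NC1 4 to 6, 0.25 ± 0.10, did not pass (adjusted p = 0.286).

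HK2 (probe set 8042942), the hexokinase that traps glucose in many growing cells, read 6.72, 6.58 and 6.58 on NC1 1 to 3, 7.50, 7.29 and 7.38 on NC1 4 to 6, 7.04, 6.95 and 6.83 with the siRNA, and 7.28, 7.42 and 7.25 with the mimic. The siRNA arrays lay between the parts without overlap, and the mimic arrays overlapped NC1 4 to 6. Within the control, NC1 4 to 6 was higher by 0.77 ± 0.09 (1.70-fold, adjusted p = 5.68e-05). The siRNA arrays lay below NC1 4 to 6, at -0.45 ± 0.09 (adjusted p = 0.00415), and above NC1 1 to 3 by 0.32 ± 0.09, which did not pass (adjusted p = 0.0609). Mimic and NC1 4 to 6 differed by -0.08, with a 95% interval from -0.27 to 0.12. HK1, the hexokinase present in most tissues, did not pass in any comparison, and its differences ran from 0.00 to 0.04.

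Of the middle steps, 1 gene was called. Among GPI, PFKL, PFKM, PFKP, ALDOA, ALDOC and TPI1, only TPI1 was called in any of the 8 comparisons. TPI1 (probe set 8180371), which interconverts both triose phosphates, read 7.48, 7.33 and 7.48 on NC1 1 to 3, 8.01, 8.19 and 8.01 on NC1 4 to 6, 7.61, 7.63 and 7.69 with the siRNA, and 7.97, 7.78 and 8.09 with the mimic. The siRNA arrays again lay between the parts, and the mimic arrays overlapped NC1 4 to 6. Its level in NC1 4 to 6 exceeded that in NC1 1 to 3 by 0.64 ± 0.10 (adjusted p = 0.000416), and the mimic exceeded NC1 1 to 3 by 0.52 ± 0.10 (adjusted p = 0.003). The siRNA arrays were lower than NC1 4 to 6, at -0.42 ± 0.10 (adjusted p = 0.00816), a call lost without NC1 5 (adjusted p = 0.0535). A dimmer probe set of TPI1 (7953508) disagreed on that comparison: it read 6.57, 6.34 and 6.60 with the siRNA, overlapping 6.41, 6.66 and 6.50 on NC1 4 to 6. With the mean of both probe sets the adjusted p was 0.134. PFKM, a phosphofructokinase subunit, gave the same deposited value on 5 of the 12 arrays, and PFKM, ALDOA, ALDOC and PFKFB4 each repeated a value on 3 or more.

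Of the lower enzymes GAPDH, PGK1, ENO1, ENO2 and PKM, 3 were called higher in NC1 4 to 6 than in NC1 1 to 3. ENO1 (probe set 7912198), the enolase of most tissues, read 8.47, 8.17 and 8.58 on NC1 1 to 3, 9.15, 9.39 and 9.28 on NC1 4 to 6, 8.50, 8.44 and 8.64 with the siRNA, and 9.22, 9.01 and 9.36 with the mimic. The siRNA arrays overlapped NC1 1 to 3 and the mimic arrays overlapped NC1 4 to 6. NC1 4 to 6 exceeded NC1 1 to 3 by 0.87 ± 0.12 (1.82-fold, adjusted p = 0.00018), and the mimic exceeded NC1 1 to 3 by 0.79 ± 0.12 (adjusted p = 0.000577). The siRNA was lower than NC1 4 to 6, at -0.74 ± 0.12 (adjusted p = 0.000549), and differed from NC1 1 to 3 by 0.12, with a 95% interval from -0.13 to 0.37.

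PKM (probe set 7990151), the pyruvate kinase of muscle and of most growing cells, read 8.62, 8.56 and 8.35 on NC1 1 to 3, 9.22, 9.28 and 9.35 on NC1 4 to 6, 8.79, 8.81 and 8.81 with the siRNA, and 9.25, 9.03 and 9.23 with the mimic. The siRNA arrays lay between the parts without overlap. Within the control, NC1 4 to 6 was higher by 0.77 ± 0.09 (1.71-fold, adjusted p = 5.68e-05), the mimic exceeded NC1 1 to 3 by 0.66 ± 0.09 (adjusted p = 0.000369), and the siRNA was lower than NC1 4 to 6, at -0.48 ± 0.09 (adjusted p = 0.00288). GAPDH, which oxidises glyceraldehyde phosphate, was called higher in NC1 4 to 6 by 0.36 ± 0.10 (adjusted p = 0.0262). That call was lost with a second quantile normalization (adjusted p = 0.232), in a fit of only the arrays compared (0.120) and without NC1 1, 5 or 6 (up to 0.0841). PGK1 and ENO2, the next kinase and the neuronal enolase, did not pass in any comparison.

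**Figure D3:**
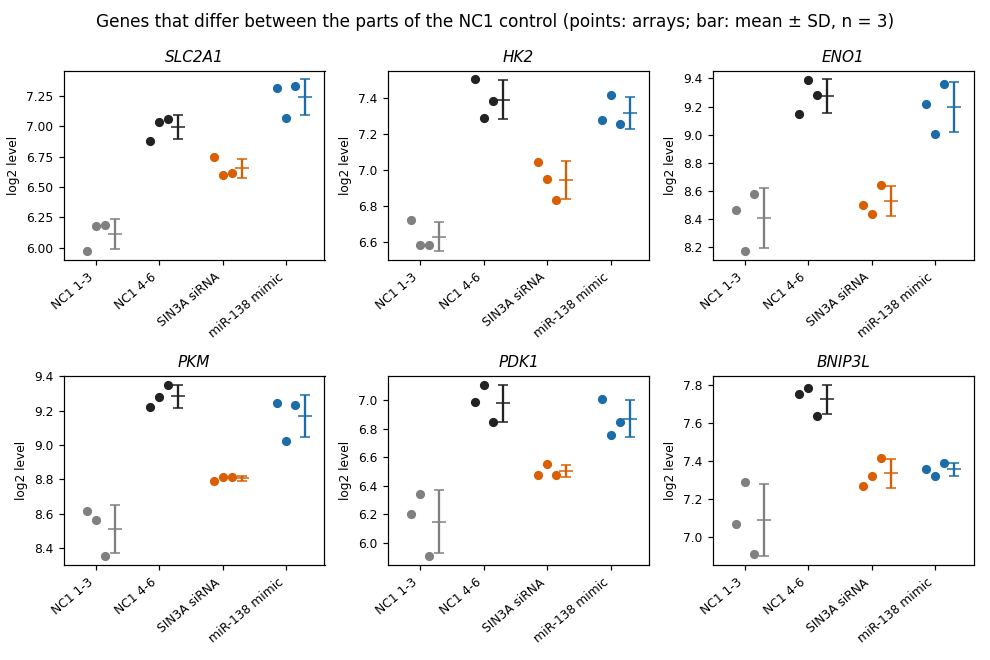
Log2 levels of SLC2A1, HK2, ENO1, PKM, PDK1 and BNIP3L on each array (points), with the mean ± SD of each set of 3 arrays (bars). The y axes do not start at 0. In the first 5 panels the mimic arrays sit near or above NC1 4 to 6, and in BNIP3L they sit near the siRNA arrays, between the parts.

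Within the set, both measured genes that turn pyruvate towards lactate were called between the parts of the control. PDK1 (probe set 8046408), the kinase that switches off pyruvate dehydrogenase, read 6.20, 6.34 and 5.90 on NC1 1 to 3, 6.99, 7.11 and 6.85 on NC1 4 to 6, 6.48, 6.55 and 6.48 with the siRNA, and 7.01, 6.75 and 6.85 with the mimic. The siRNA arrays lay between the parts, and the mimic arrays overlapped NC1 4 to 6. Its level in NC1 4 to 6 exceeded that in NC1 1 to 3 by 0.83 ± 0.11 (1.78-fold, adjusted p = 0.000168), and the mimic exceeded NC1 1 to 3 by 0.72 ± 0.11 (adjusted p = 0.000753). The difference of the siRNA arrays from NC1 4 to 6, -0.48 ± 0.11, passed (adjusted p = 0.0106) except without NC1 5 (adjusted p = 0.0621). LDHA, the main subunit of lactate dehydrogenase in glycolytic tissue, was higher in NC1 4 to 6 than in NC1 1 to 3 by 0.43 ± 0.08 (adjusted p = 0.00315) and higher with the mimic than in NC1 1 to 3 by 0.40 ± 0.08 (adjusted p = 0.00654).

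PFKFB3 (probe set 7926037) makes fructose 2,6-bisphosphate, the strongest activator of phosphofructokinase. It read 6.27, 6.02 and 6.04 on NC1 1 to 3, 6.62, 6.73 and 6.63 on NC1 4 to 6, 6.37, 6.50 and 6.36 with the siRNA, and 6.65, 6.42 and 6.35 with the mimic. The mimic arrays spread from the siRNA level up to NC1 4 to 6. NC1 4 to 6 exceeded NC1 1 to 3 by 0.55 ± 0.10 (adjusted p = 0.00184) and the mimic exceeded NC1 1 to 3 by 0.37 ± 0.10 (adjusted p = 0.0332), the last call being lost without NC1 2, NC1 3, mimic 1 or mimic 2 and in a fit of only the arrays compared (up to 0.161). Its relative PFKFB4 did not pass in any comparison.

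NDRG1 was the 1 gene of the set called with the mimic against all 6 control arrays. NDRG1 (probe set 8153002) is a stress-induced gene widely used as a marker of hypoxia. It read 5.94, 6.40 and 6.33 on NC1 1 to 3, 6.72, 6.52 and 6.69 on NC1 4 to 6, 6.49, 6.40 and 6.38 with the siRNA, and 7.22, 7.21 and 7.46 with the mimic. All 3 mimic arrays lay above all other 9 arrays, and the siRNA arrays overlapped NC1 1 to 3. The mimic exceeded all 6 control arrays by 0.86 ± 0.14 (1.82-fold, adjusted p = 0.00851), NC1 1 to 3 by 1.07 ± 0.12 (2.10-fold, adjusted p = 3.45e-05) and NC1 4 to 6 by 0.65 ± 0.12 (1.57-fold, adjusted p = 0.00377). It exceeded the siRNA by 0.87 ± 0.16 (adjusted p = 0.0173). Within the control, NC1 4 to 6 was higher by 0.42 ± 0.12 (adjusted p = 0.0293), which was lost without NC1 1, 4 or 6 (up to 0.120), with a second quantile normalization (0.109) and in a fit of only the arrays compared (0.110). The mimic's calls against each part held under every alternative run, whereas the call against all 6 was lost without mimic 1 or mimic 3 (adjusted p up to 0.0703). The call against the siRNA was lost without any 1 siRNA or mimic array (up to 0.0896) and when each treatment was first set against its presumed part of the control (adjusted p = 0.227).

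VEGFA (probe set 8119898), the main angiogenic growth factor, read 7.48, 7.42 and 7.20 on NC1 1 to 3, 7.14, 7.19 and 7.07 on NC1 4 to 6, 7.06, 7.29 and 7.11 with the siRNA, and 7.63, 7.46 and 7.53 with the mimic. All 3 arrays of NC1 4 to 6 read below all 3 of NC1 1 to 3, with a difference of -0.23 ± 0.10 that did not pass (adjusted p = 0.164). The mimic exceeded NC1 4 to 6 by 0.41 ± 0.10 (1.33-fold, adjusted p = 0.0268), a call lost without any 1 array of either group (adjusted p up to 0.141). Against NC1 1 to 3 the mimic differed by 0.18, with a 95% interval from -0.03 to 0.38. ADM, a secreted vasodilator peptide, did not pass in any comparison.

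Among the oxygen sensors, EGLN1 and EGLN3 did not pass in any comparison, with differences from -0.19 to 0.22 for EGLN3. KDM3A (probe set 8043283), a histone demethylase that HIF induces, read 6.48, 6.53 and 6.25 on NC1 1 to 3, 6.87, 7.14 and 6.79 on NC1 4 to 6, 6.89, 6.89 and 6.95 with the siRNA, and 7.16, 7.06 and 7.56 with the mimic. NC1 1 to 3 lay below all 9 other arrays. Against NC1 1 to 3, the difference was 0.51 ± 0.13 for NC1 4 to 6 (adjusted p = 0.0161), 0.49 ± 0.13 for the siRNA (adjusted p = 0.0318) and 0.84 ± 0.13 for the mimic (adjusted p = 0.000611). The call for NC1 4 to 6 was lost without NC1 3 or NC1 5 (up to 0.104) and that for the siRNA without NC1 3 or any 1 siRNA array (up to 0.106).

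The mitophagy receptors BNIP3 and BNIP3L, which tag mitochondria for removal, were both called higher in NC1 4 to 6 than in NC1 1 to 3. BNIP3 (probe set 7937079) read 6.43, 6.54 and 5.94 on NC1 1 to 3, 7.15, 7.23 and 6.90 on NC1 4 to 6, 6.66, 6.50 and 7.01 with the siRNA, and 7.25, 7.26 and 7.35 with the mimic. The mimic arrays lay above all 9 others, and the siRNA arrays overlapped both parts. BNIP3 was higher than in NC1 1 to 3 by 0.79 ± 0.15 in NC1 4 to 6 (adjusted p = 0.00248) and by 0.98 ± 0.15 with the mimic (1.98-fold, adjusted p = 0.000627). BNIP3L (probe set 8145454) read 7.07, 7.29 and 6.91 on NC1 1 to 3, 7.76, 7.78 and 7.64 on NC1 4 to 6, 7.27, 7.32 and 7.42 with the siRNA, and 7.36, 7.32 and 7.39 with the mimic. Here the mimic arrays lay between the parts, within the range of the siRNA arrays, 1 of which overlapped NC1 1 to 3. Its level in NC1 4 to 6 exceeded that in NC1 1 to 3 by 0.64 ± 0.10 (adjusted p = 0.000495), and the siRNA was lower than NC1 4 to 6, at -0.39 ± 0.10 (adjusted p = 0.0157). That call was lost without siRNA 1, siRNA 2, NC1 4 or NC1 5 (up to 0.0716). For the mimic against NC1 4 to 6 the difference was -0.37 ± 0.10 and missed the threshold (adjusted p = 0.0511). A difference between BNIP3 and BNIP3L was not tested.

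ANKRD37 (probe set 8098604), a small ankyrin repeat gene induced by HIF, read 5.58, 6.06 and 5.38 on NC1 1 to 3, 5.84, 5.95 and 6.02 on NC1 4 to 6, 5.88, 5.85 and 5.62 with the siRNA, and 6.33, 6.16 and 6.35 with the mimic. All mimic arrays lay above the 9 others. The mimic exceeded NC1 1 to 3 by 0.61 ± 0.14 (adjusted p = 0.0109, lost without mimic 3 and in a fit of only the arrays compared, up to 0.0582), while its differences from NC1 4 to 6, 0.34 ± 0.14, and from all 6 control arrays, 0.47 ± 0.14, did not pass (adjusted p = 0.287 and 0.135). DDIT4, a stress-induced inhibitor of mTORC1, did not pass in any comparison.

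**Figure D4:**
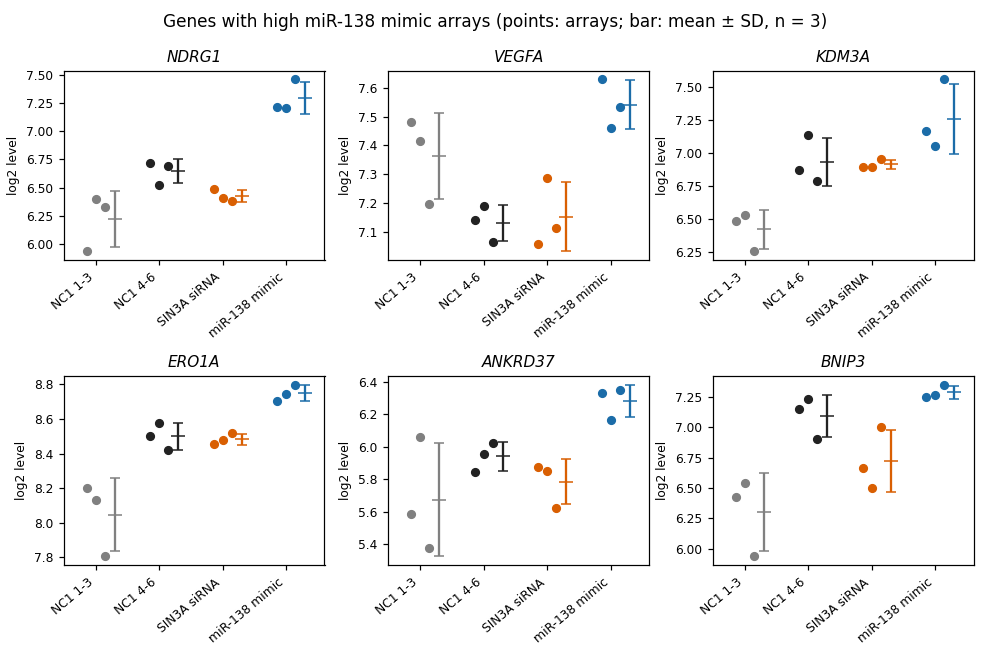
Log2 levels of NDRG1, VEGFA, KDM3A, ERO1A, ANKRD37 and BNIP3 on each array (points), with the mean ± SD of each set of 3 arrays (bars). The y axes do not start at 0. The mimic arrays lie above all 9 others for NDRG1, ERO1A, ANKRD37 and BNIP3, and of these NDRG1 alone passed against NC1 4 to 6.

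All 3 enzymes that act on proteins in the secretory pathway were called higher with the mimic than in NC1 1 to 3. P4HA1 (probe set 7934278), a catalytic subunit of collagen prolyl hydroxylase, read 7.00, 6.77 and 6.50 on NC1 1 to 3, 7.46, 7.50 and 7.00 on NC1 4 to 6, 6.74, 6.94 and 6.90 with the siRNA, and 7.31, 7.54 and 7.51 with the mimic. The siRNA arrays overlapped NC1 1 to 3 and lay below the mimic arrays. P4HA1 was higher than in NC1 1 to 3 by 0.57 ± 0.14 in NC1 4 to 6 (adjusted p = 0.0152) and by 0.70 ± 0.14 with the mimic (adjusted p = 0.00481), and the siRNA was lower than NC1 4 to 6, at -0.46 ± 0.14 (adjusted p = 0.0435). The first of these was lost without NC1 3, 4 or 5 and in a fit of only the arrays compared (up to 0.0928), and the last without any of 9 arrays (all but NC1 1, 3 and 6; up to 0.195). P4HA2, the related subunit, passed for the mimic against NC1 1 to 3, at 0.36 ± 0.09 (adjusted p = 0.0216), and the call was lost without NC1 2, mimic 1 or mimic 3, with a second quantile normalization and in a fit of only the arrays compared (up to 0.110).

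ERO1A (probe set 7979179), the oxidase that supplies disulfide bonds in the endoplasmic reticulum, read 8.20, 8.13 and 7.81 on NC1 1 to 3, 8.50, 8.58 and 8.42 on NC1 4 to 6, 8.45, 8.48 and 8.52 with the siRNA, and 8.70, 8.75 and 8.80 with the mimic. The siRNA arrays lay within NC1 4 to 6, and the mimic arrays above all others. Against NC1 1 to 3 the difference was 0.45 ± 0.10 for NC1 4 to 6 (adjusted p = 0.00768), 0.44 ± 0.10 for the siRNA (adjusted p = 0.0179) and 0.70 ± 0.10 for the mimic (adjusted p = 0.000364). The siRNA call was lost without NC1 3, siRNA 2 or siRNA 3 (adjusted p up to 0.0665) and in a fit of only the arrays compared (0.0966), where the call for NC1 4 to 6 was lost too (0.0616).

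14 of the 32 genes were not called in any of the 8 comparisons: HK1, GPI, PFKL, PFKM, PFKP, ALDOA, ALDOC, PGK1, ENO2, PFKFB4, EGLN1, EGLN3, ADM and DDIT4. Their differences ran from -0.32 to 0.50, both of them in ENO2, and their lowest adjusted p was 0.0686, also in ENO2. They included bright genes, such as PGK1, with group means from 7.93 to 8.16, and GPI, with group means from 7.87 to 8.15.

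The other genes of the pathway were taken in 5 lists chosen by function. Of 22 other hypoxia targets measured, 7 were called higher and 1 lower in NC1 4 to 6 than in NC1 1 to 3, with a median of 0.09, where 6.86% of all genes were called higher and 3.18% lower. With the mimic, 6 were called higher and 0 lower than in NC1 1 to 3, against 6.01% and 2.54% of all genes. Of the same 22, 0 were called higher and 4 lower with the siRNA than in NC1 4 to 6, against 5.16% and 6.28% of all genes. INSIG2, which restrains cholesterol synthesis, was higher in NC1 4 to 6 by 1.14 ± 0.12 (adjusted p = 9.09e-06), and PLOD2, a collagen lysyl hydroxylase, by 1.07 ± 0.13 (adjusted p = 4.97e-05). PLOD2 read 8.05, 7.80 and 7.43 on NC1 1 to 3, 8.94, 8.85 and 8.70 on NC1 4 to 6, 7.57, 7.56 and 7.62 with the siRNA, and 8.64, 8.89 and 8.80 with the mimic. Its siRNA arrays stood with NC1 1 to 3 and its mimic arrays with NC1 4 to 6.

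Of 14 HIF subunits and their controllers measured, 2 were called higher (14.3%) and 1 lower (7.14%) in NC1 4 to 6 than in NC1 1 to 3, with a median of 0.01, against 6.86% and 3.18% of all genes. At this list size, these shares are counts of 1 or 2 genes. RBX1 (0.54, adjusted p = 0.00202) and CUL2 (0.54, adjusted p = 0.0291) were the higher genes and EPAS1 (-0.35, adjusted p = 0.0421) the lower. CUL2 and EPAS1 lost the call under several alternatives and RBX1 under none. HIF1A, the oxygen-regulated subunit, read 8.64, 8.54 and 8.18 on NC1 1 to 3, 8.37, 8.34 and 7.95 on NC1 4 to 6, 8.56, 8.69 and 8.45 with the siRNA, and 7.88, 8.08 and 8.08 with the mimic. The mimic was lower than NC1 1 to 3, at -0.44 ± 0.13 (adjusted p = 0.0491), a call lost without any 1 array but NC1 3 or NC1 6 and in a fit of only the arrays compared (up to 0.183). ELOC, a subunit of the ligase that removes HIF, was higher with the siRNA than in all 6 control arrays by 0.44 ± 0.10 (adjusted p = 0.0237). That call was lost without any 1 siRNA array (up to 0.149), with a replicate block (0.0752) and with array set as a term (0.0602). Both terms in effect compare the siRNA with NC1 1 to 3 and gave the same difference, 0.37, so they are not separate checks.

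TXNIP and ARRDC4, targets of the glucose-sensing factors, were lower in NC1 4 to 6 than in NC1 1 to 3. TXNIP, an arrestin that glucose induces and that limits glucose uptake, read 10.68, 10.53 and 10.58 on NC1 1 to 3, 9.28, 9.25 and 9.09 on NC1 4 to 6, 10.27, 10.29 and 10.36 with the siRNA, and 10.48, 10.42 and 10.49 with the mimic. NC1 4 to 6 lay far below all 9 other arrays, at -1.39 ± 0.09 against NC1 1 to 3 (2.62-fold lower, adjusted p = 4.97e-08). The mimic exceeded NC1 4 to 6 by 1.26 ± 0.09 (adjusted p = 2.21e-07) and the siRNA by 1.10 ± 0.09 (adjusted p = 6.33e-07). Its relative ARRDC4, at 6.61, 6.39 and 6.20 on NC1 1 to 3, read 5.52, 5.52 and 5.03 on NC1 4 to 6 (-1.04 ± 0.13, adjusted p = 7.19e-05), and 6.39, 6.55 and 6.59 with the siRNA and 6.22, 6.21 and 6.23 with the mimic. For TXNIP and ARRDC4 the mimic arrays stood with NC1 1 to 3, and for SLC2A1, HK2 and ENO1 with or above NC1 4 to 6. MYC was lower in NC1 4 to 6 than in NC1 1 to 3, at -0.44 ± 0.10 (adjusted p = 0.0112). Of the 12 regulators measured, 1 was called higher and 4 lower in NC1 4 to 6 than in NC1 1 to 3, against 6.86% and 3.18% of all genes. The higher gene was PRKAA2 (0.59, adjusted p = 0.00581).

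**Figure D5:**
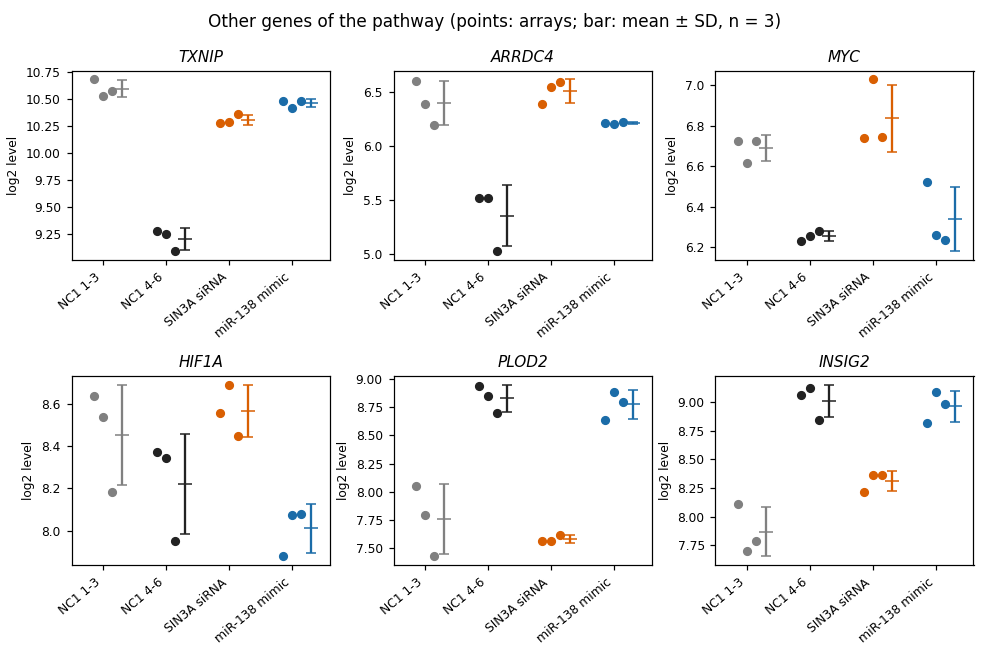
Log2 levels of TXNIP, ARRDC4, MYC, HIF1A, PLOD2 and INSIG2, which are not in the set of 35, on each array (points), with the mean ± SD of each set of 3 arrays (bars). The y axes do not start at 0. NC1 4 to 6 lies lowest for TXNIP and ARRDC4, and NC1 4 to 6 and the mimic lie highest for PLOD2 and INSIG2.

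Of 23 other isoenzymes and pyruvate genes measured, 2 were called higher and 0 lower with SIN3A siRNA than in all 6 control arrays, against 2.35% and 1.66% of all genes. MPC1, a subunit of the mitochondrial pyruvate carrier, read 6.44, 6.31 and 6.24 on NC1 1 to 3, 6.35, 6.37 and 6.00 on NC1 4 to 6, 6.66, 7.01 and 6.96 with the siRNA, and 6.57, 6.48 and 6.45 with the mimic. The siRNA arrays lay above all 9 others, and the difference from all 6 control arrays was 0.59 ± 0.10 (adjusted p = 0.00681). TIGAR, a phosphatase that lowers fructose 2,6-bisphosphate, was higher with the siRNA by 0.51 ± 0.10 (adjusted p = 0.0136), at a low level of 4.54, 4.48 and 4.31 on the siRNA arrays. The mimic arrays read 4.44, 4.21 and 4.43. They were called higher than NC1 1 to 3 by 0.48 (adjusted p = 0.0170, lost without NC1 2, mimic 1 or mimic 3), but not higher than all 6 control arrays. The MPC1 call was lost without siRNA 2 or 3 (adjusted p up to 0.0553) and the siRNA's TIGAR call without siRNA 1 or 2 (up to 0.0763). Within the control, LDHB (0.57, adjusted p = 0.00105), PDK3 (0.66, 0.00142) and SLC16A7 (0.62, 0.00806) were called higher in NC1 4 to 6. These were 3 of the 23, and 0 were lower, against 6.86% and 3.18% of all genes. The SLC16A7 call was lost without NC1 5. With the siRNA, 4 were called higher and 0 lower than in NC1 1 to 3 (3.66% and 2.04% of all genes). Against NC1 4 to 6, 4 were higher and 2 lower (5.16% and 6.28%). Of 12 genes of gluconeogenesis and the pentose phosphate pathway, 0 were called in either direction for either treatment against all 6 control arrays, where 2.35% and 1.66% of all genes were called higher and lower with the siRNA and 0.641% and 0.402% with the mimic. Between the parts, RPE was called higher on NC1 4 to 6 (0.49, adjusted p = 0.0133), with 6.86% of all genes. With the mimic, RPE (0.51, adjusted p = 0.0124) and TALDO1 (0.30, 0.0376) were called higher than in NC1 1 to 3, with 6.01% of all genes. With the siRNA, TKT was called higher than in NC1 4 to 6 (0.38, adjusted p = 0.0126), with 5.16% of all genes. Each of these calls was lost under at least 1 alternative.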

How the data were processed

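RNA from 12 arrays (6 NC1, 3 SIN3A siRNA, 3 miR-138 mimic) was analysed from the deposited log2 values, which the authors made with RMA and Partek 6.3, as the submitters' processing notes name them, the step of each being unstated. The table had 33297 probe sets: 19460 with 1 gene symbol, 1754 with more and 12083 with none. A gene was read from its single-symbol probe set with the highest mean, which gave 18417 genes. limma 3.58.1 in R 4.3.3 fitted all 12 arrays with 3 group means (9 residual degrees of freedom), or with 4 means where NC1 1 to 3 and 4 to 6 were taken apart (8), and Benjamini-Hochberg adjustment ran over all genes. The median SE of a log2 difference was 0.10 to 0.12, and the number of arrays limits this precision. The fit was also run on simulated data with independent noise. For the labelled groups these data held no split of the control, so that run does not cover it.

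Genes of the set are described with array values where called with a difference of at least 0.5, or as the gene of their role with the largest difference between labelled groups. From each other list, up to 3 genes with the smallest adjusted p were drawn in each comparison. Genes named from those lists are among the drawn ones, but not all drawn genes are named. The genes of the set, the lists and the split of the control were chosen with earlier results of these data known, and so were the genes plotted. Motif counts use RefSeq windows of GRCh38.p14. Alternatives were a second quantile normalization, a filter on dim genes, the mean of all probe sets, a variance trend, other sets of arrays, and terms for replicate number and array set.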

Additional observations from a re-analysis of the deposited data

Results flagged for a closer look

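ALDOC, an aldolase of brain and other tissues, had 1 array far from the rest of its group: NC1 2 read 5.70, while the other 5 control arrays read 5.29 to 5.32, and the gap was 0.9216 of the group's range. This was 1 of 59 genes whose 6 control arrays were examined. Chance gives about 1 in 20 where all 6 arrays form 1 group. The NC1 parts differ for many of these genes, so that rate cannot be carried over to them.

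The changes from NC1 with the mimic and with the siRNA differed for 4 genes, by limma's contrast of both treatments. For NDRG1 the mimic's change was higher by 0.8681 (log2, adjusted p = 0.0173). For ELOC, a subunit of the ligase that removes HIF, the mimic minus siRNA difference was -0.526 (adjusted p = 0.0358). For HKDC1, a hexokinase-like enzyme, it was 0.4666 (adjusted p = 0.0384). For MPC2, a subunit of the mitochondrial pyruvate carrier, it was -0.3876 (adjusted p = 0.0496). All 4 lost the call when each treatment was first set against its presumed part of the control, and without any 1 siRNA or mimic array in turn. MPC2 lost it in addition without NC1 2, 4, 5 or 6 in turn (adjusted p up to 0.166 over all arrays left out), with a variance trend and with a replicate block, and ELOC with the mean of all its probe sets.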

How the results depend on the processing

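Of 45 calls of genes of the set, 27 held under every alternative run and 18 were lost under at least 1. Terms for array set placed NC1 1 to 3 with the siRNA and NC1 4 to 6 with the mimic, an order the labels do not state. By construction they repeat the contrasts with those parts. For SIN3A siRNA against NC1 they called 3 genes of the set, with 1050 of all genes in place of 739. For the mimic they called 2, with 642 of all genes in place of 192. Each treatment set against its presumed part gave 2 for mimic against siRNA (1 higher and 1 lower), in place of 1, with 385 of all genes in place of 289. Under these terms the direction reversed for INSIG2 (siRNA against NC1, 0.45, adjusted p = 0.0323), BNIP3L (mimic against siRNA, -0.62, adjusted p = 0.0300) and ARRDC4 (mimic against siRNA, 0.74, adjusted p = 0.0462). None of these differences was called in the main fit, so no call changed sign.

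With a replicate block, 1 gene of the set was called for siRNA against NC1 and 14 for mimic against NC1 (1281 of all genes). For mimic against siRNA there were 6 (830 of all genes, in place of 289). The later NC1 arrays share no number with a treated array, so this block in effect compares each treatment with NC1 1 to 3. Without the block, that comparison gave 15 genes of the set for the mimic (1575 of all genes) and 3 for the siRNA. The 14 genes are thus not a result against all 6 control arrays. Same-numbered arrays deviated with correlations of -0.1 to 0.029 over genes, so the numbers were not taken to pair samples. No crossing was tried.

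With only the arrays compared in the fit, calls over all genes were 357 in place of 739 (siRNA against NC1), 92 (mimic against NC1), 1474 (mimic against siRNA, with 12 of the set), 973 in place of 1850 (NC1 4 to 6 against 1 to 3), 371 in place of 1050 (siRNA against NC1 1 to 3) and 909 in place of 1575 (mimic against NC1 1 to 3). Leaving out genes with a mean level under 6 left 23 of the set to test. It gave 8 of them called for siRNA against NC1 1 to 3, in place of 3, with 1097 of the remaining genes called in all. The cause of these shifts was not tested.

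Leaving out 1 array at a time gave, for the set and for all genes, 0 to 0 and 165 to 1033 (siRNA against NC1), 0 to 2 and 39 to 264 (mimic against NC1), and 0 to 2 and 58 to 568 (mimic against siRNA). It gave 12 to 16 and 1062 to 2382 for NC1 4 to 6 against NC1 1 to 3. For the siRNA it gave 1 to 7 and 517 to 1410 against NC1 1 to 3, and 3 to 8 and 1412 to 2492 against NC1 4 to 6. For the mimic it gave 13 to 15 and 930 to 2105 against NC1 1 to 3, and 1 to 3 and 363 to 836 against NC1 4 to 6. With 3 arrays in a group, small differences remain below what these arrays can show.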
